A study of Mus musculus with 6 samples.

Results

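The 10 genes described here encode the main enzymes that remove superoxide and peroxides in the mouse: the glutathione peroxidases Gpx1, Gpx3 and Gpx4, the superoxide dismutases Sod1, Sod2 and Sod3, and the peroxiredoxins Prdx1, Prdx3, Prdx5 and Prdx6. They were found by symbol through GENCODE M21 (GRCm38) among the 54532 genes of a table of read counts per gene. The set was chosen with earlier results of these data known. All 10 were among the 16017 genes with enough counts to be tested. RNA came from whole kidneys of male mice on a C57BL/6 background. They were fed normal chow with doxycycline at 600 mg per kg of diet for 4 days. Control mice carried KsprtTA alone, a doxycycline-dependent activator driven in tubular epithelium by the kidney-specific Ksp promoter, and their genotype is given as WT in the sample labels. KSPAPN mice carried KsprtTA and TRE-Adiponectin, so that doxycycline turned on adiponectin in the tubules. Each group had 3 libraries, each pooled from 3 mice, for 9 mice per group, and the spread between libraries is therefore a spread between pools. No age of these mice is given in the sources used here.

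Superoxide leaks from the respiratory chain and is made on purpose by NADPH oxidases, and superoxide dismutases turn it into hydrogen peroxide. Glutathione peroxidases then reduce peroxides with glutathione, some of them through a selenocysteine in the active site. Peroxiredoxins use a reactive cysteine that thioredoxin usually restores. The kidney uses much oxygen for tubular transport, and its proximal tubule is the main source of the glutathione peroxidase found in plasma, Gpx3.

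The active sites show what divides the families, so the coding sequence around them is given from the reference transcripts of GENCODE M21 on GRCm38, 5′ to 3′ on the coding strand. In the peroxidases the capitals mark the codon for selenocysteine, TGA, which elsewhere ends a protein. It lies at chr11:54907256-54907258 in exon 2 of 5 of Gpx3, at chr9:108339451-108339453 in exon 1 of 2 of Gpx1 and at chr10:80054737-80054739 in exon 3 of 7 of Gpx4. Gpx6, a peroxidase outside the 10 genes, is shown because it has the cysteine codon TGT in that place, at chr13:21313777-21313779, while 30 of the 42 flanking bases are those of Gpx3. The same count was 18 for Gpx1 and 21 for Gpx4.
Gpx3: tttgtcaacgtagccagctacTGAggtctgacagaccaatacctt
Gpx1: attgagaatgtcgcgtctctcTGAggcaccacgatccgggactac
Gpx4: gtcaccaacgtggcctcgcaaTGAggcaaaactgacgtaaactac
Gpx6: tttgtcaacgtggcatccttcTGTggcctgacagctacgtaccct

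In the peroxiredoxins the capitals mark the codon of the peroxidatic cysteine, the residue that meets the peroxide, found here by the active-site pattern. Prdx3 in the mitochondrion and Prdx1 in the cytosol had 32 of the 42 flanking bases in common. Prdx5 and Prdx6 shared 18 and 21 with Prdx1.
Prdx1: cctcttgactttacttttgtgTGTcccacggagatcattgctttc
Prdx3: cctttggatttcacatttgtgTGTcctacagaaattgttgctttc
Prdx5: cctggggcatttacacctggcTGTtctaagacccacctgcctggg
Prdx6: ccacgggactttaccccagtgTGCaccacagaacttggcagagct

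Total counts ranged from 17183358 to 18205023 over the Control libraries and from 18150442 to 20871173 over the KSPAPN libraries, and the members took 2.71% to 3.01% of them. No member had fewer than 2808 counts in any library. Adipoq checked the labels, with 2, 0 and 2 counts in the Control libraries and 24629, 17483 and 26811 in those of KSPAPN. The labels give kidney as the tissue while their extraction text speaks of liver. FPKM stands for fragments counted per length of the gene and a library size, which is not given in the sources used here. Markers of the proximal tubule were high in every library, with summed FPKM of 24138 to 35475 in Control and 17600 to 28074 in KSPAPN. The 6 hepatocyte markers summed to 539 to 853 FPKM in Control and 311 to 473 in KSPAPN, most of it Cyp2e1 (569 ± 120 and 321 ± 69.4 FPKM, SD, n = 3), while Alb was at 2.05 ± 0.791 and 3.04 ± 2.40.

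In these kidneys, 2 of the 10 members fell, Gpx1 and Prdx5, and none rose, at an adjusted p under 0.05 (edgeR's quasi-likelihood test, Benjamini-Hochberg over all genes tested). Of all genes tested, 2.65% passed by the same rule, 2.25% lower and 0.393% higher. The log2 fold change was below 0 in 7 members and in 48.1% of all genes tested. In 6 members, 3 cytosolic (Gpx1, Sod1 and Prdx6) and all 3 mitochondrial, every KSPAPN library was below every Control library. Among all genes tested, 24.5% had no overlap, 13.1% lower and 11.4% higher. The 6 were also the members with an unadjusted p under 0.05, where 11.2% of all genes tested were lower. The exact permutation test over the 20 arrangements of the libraries, two-sided, gave p = 0.1 for the FPKM of each of the 6, the smallest that 3 libraries against 3 allow. The 2 secreted members, Gpx3 and Sod3, overlapped between groups.

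**Figure D1:**
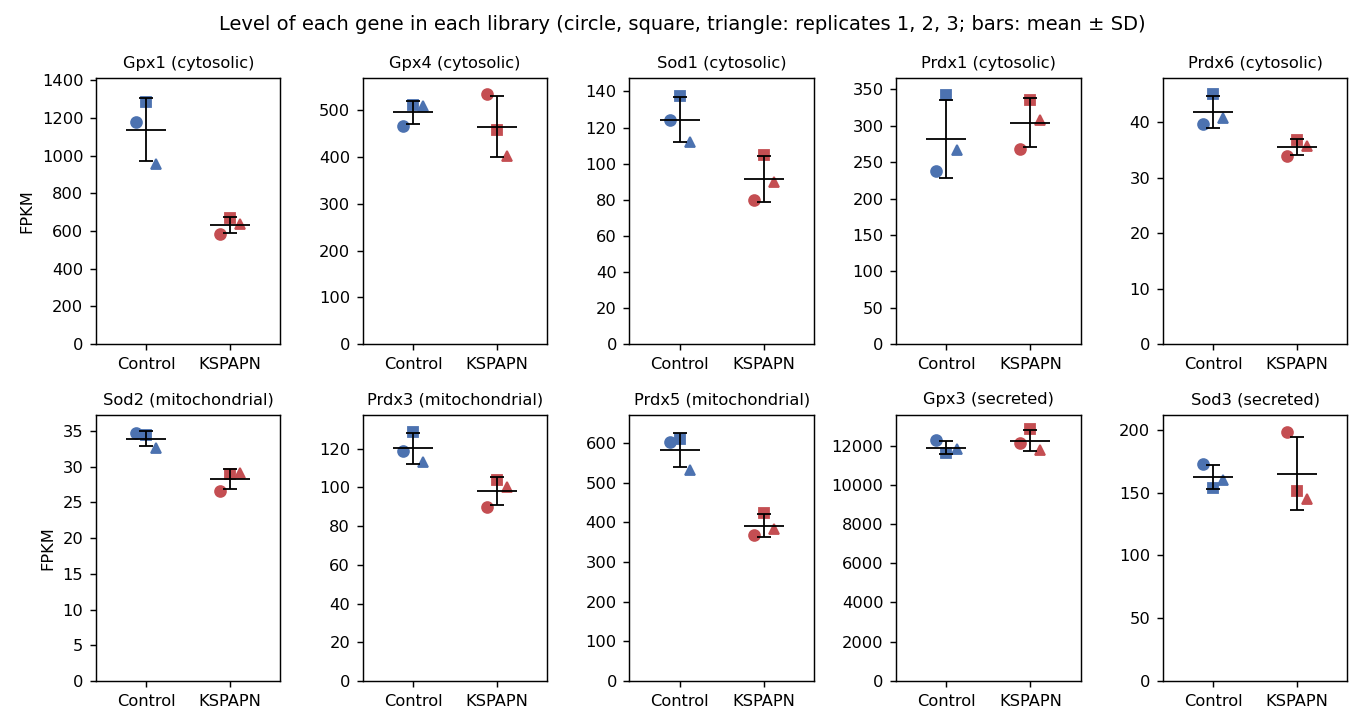
FPKM of each member in each library (y axes, linear from 0), Control in blue and KSPAPN in red, with circles, squares and triangles for replicates 1, 2 and 3 and black bars for the mean ± SD. Groups are apart for Gpx1, Sod1, Prdx6, Sod2, Prdx3 and Prdx5 and overlap for Gpx4, Prdx1, Gpx3 and Sod3.

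Among the cytosolic enzymes, Gpx1, which reduces hydrogen peroxide with glutathione, had the largest difference. Its FPKM was 1179, 1281 and 953 in Control and 585, 668 and 639 in KSPAPN. The lowest Control library was well above the highest KSPAPN library. The mean fell by 44.4%, from 1138 ± 168 to 630 ± 42.1 FPKM (SD, n = 3), a log2 fold change of -0.85 (SE 0.12, 95% interval -1.12 to -0.57, adjusted p = 0.0105 from edgeR). Gpx1 (ENSMUSG00000063856) lies on chromosome 9 from 108338903 to 108340343, and ranked 17 among protein-coding genes by mean FPKM in Control and 28 in KSPAPN. The adjusted p of Gpx1 was 0.0626 without Control replicate 1, 0.0642 without KSPAPN replicate 3, and 0.0572 to 0.06 with limma on log2 FPKM. Its transcript has a GC content of 57.2%, and after a trend against GC content and length was removed from each library the log2 fold change was -0.61 (SE 0.13, adjusted p = 0.0421).

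Sod1, the copper and zinc dismutase of the cytosol, was at 124, 137 and 112 FPKM in Control and 79.7, 105 and 89.8 in KSPAPN. The groups did not overlap, though KSPAPN replicate 2 came close to Control replicate 3. The means were 124 ± 12.6 and 91.4 ± 12.6 FPKM (SD, n = 3), with a log2 fold change of -0.44 (SE 0.12, 95% interval -0.70 to -0.18), which did not pass (adjusted p = 0.0806 from edgeR). It passed with DESeq2 (adjusted p = 0.0127), without the filter on low counts (0.00163) and after removal of the GC and length trend (0.0478). With each library left out, Sod1 did not pass (adjusted p = 0.0646 to 0.262 from edgeR). Ccs, the chaperone that loads copper into Sod1, was at 109 ± 11.1 and 96.1 ± 3.81 FPKM (SD, n = 3; log2 fold change -0.17, SE 0.10, adjusted p = 0.381 from edgeR), and its log2 fold change was 0.050 after removal of that trend.

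Prdx6, which reduces phospholipid hydroperoxides and has a phospholipase activity, was at 39.7, 45.1 and 40.8 FPKM in Control and 34.0, 36.8 and 35.8 in KSPAPN. Its log2 fold change was -0.23 (SE 0.09, 95% interval -0.43 to -0.04), smaller than those of Gpx1 and Sod1, and did not pass (adjusted p = 0.192 from edgeR).

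The other 2 members counted as cytosolic overlapped between groups. Gpx4, which reduces lipid hydroperoxides within membranes and guards cells from ferroptosis, was at 466, 511 and 509 FPKM in Control and 534, 458 and 403 in KSPAPN. KSPAPN replicate 1 was the highest of the 6 libraries and KSPAPN replicate 3 the lowest. The log2 fold change was -0.083 (SE 0.12, 95% interval -0.35 to 0.18), and it was 0.18 after removal of the GC and length trend, so that the direction of Gpx4 depended on the processing. The exons of Gpx4 share 25.2% of their 100-base stretches with other genes, chiefly with the pseudogene Gpx4-ps2, which held 3278 counts in all libraries, so part of the reads could belong to either. Prdx1, an abundant peroxiredoxin of the cytosol, was at 238, 342 and 266 FPKM in Control and 268, 336 and 309 in KSPAPN. Its log2 fold change of 0.11 (SE 0.14, 95% interval -0.20 to 0.43) did not exceed its error (adjusted p = 0.717, edgeR).

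All 3 mitochondrial members were lower in every KSPAPN library than in any Control library, and 1 of them passed the test. Prdx5, found in mitochondria and also in peroxisomes and the cytosol, was at 604, 611 and 533 FPKM in Control and 368, 425 and 383 in KSPAPN. The gap between the groups was wider than the range within either. The mean fell by 32.5%, from 583 ± 43.0 to 392 ± 29.7 FPKM (SD, n = 3), a log2 fold change of -0.57 (SE 0.10, 95% interval -0.80 to -0.34, adjusted p = 0.0226 from edgeR). The call was lost without Control replicate 1 (adjusted p = 0.113), Control replicate 2 (0.0814) or KSPAPN replicate 3 (0.124), and after removal of the GC and length trend (log2 fold change -0.39, adjusted p = 0.0885). With limma on log2 FPKM the adjusted p was 0.0687 to 0.0713. Prdx5 (ENSMUSG00000024953, chromosome 19, 6906697 to 6910106, minus strand) overlaps Trmt112 on the opposite strand over 409 of its 2139 exon bases, and whether the counting used strand is not given in the sources used here. Trmt112 held 3711 counts in all libraries, and its log2 fold change was -0.30 (SE 0.11, adjusted p = 0.188 from edgeR).

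Prdx3, the peroxiredoxin of the mitochondrial matrix, was at 119, 129 and 113 FPKM in Control and 89.8, 104 and 100.4 in KSPAPN. Its log2 fold change was -0.29 (SE 0.09, 95% interval -0.49 to -0.09, adjusted p = 0.127 from edgeR). Sod2, the manganese dismutase of the matrix, was at 34.7, 34.4 and 32.7 FPKM in Control and 26.6, 29.0 and 29.2 in KSPAPN. Its log2 fold change was -0.26 (SE 0.09, 95% interval -0.45 to -0.07, adjusted p = 0.142 from edgeR), and -0.39 after removal of the GC and length trend (adjusted p = 0.0291), where it passed. The transcripts of Sod2 share 12.8% of their 100-base stretches with Rps6ka2 and AC166110.4, which held 509 counts in all libraries. Neither Prdx3 nor Sod2 passed in the main test, although the Control and KSPAPN values were apart in both.

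Neither secreted member differed beyond the spread between libraries. Gpx3, the plasma glutathione peroxidase, was at 12278, 11602 and 11812 FPKM in Control and 12149, 12844 and 11780 in KSPAPN. It alone took 2.04% to 2.46% of all counts of a library and ranked 4 among protein-coding genes by mean FPKM in Control and 5 in KSPAPN. Its log2 fold change was 0.049 (SE 0.13, adjusted p = 0.874 from edgeR), with a 95% interval from -0.23 to 0.33 that leaves room for a change of that size either way. Sod3, the dismutase bound to the extracellular matrix, was at 173, 154 and 160 FPKM in Control and 199, 152 and 145 in KSPAPN. KSPAPN replicate 1 was above all other libraries and the other two KSPAPN libraries were below all of Control. The log2 fold change was 0.033 (SE 0.13, 95% interval -0.26 to 0.32), and without KSPAPN replicate 1 it was -0.11.

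**Figure D2:**
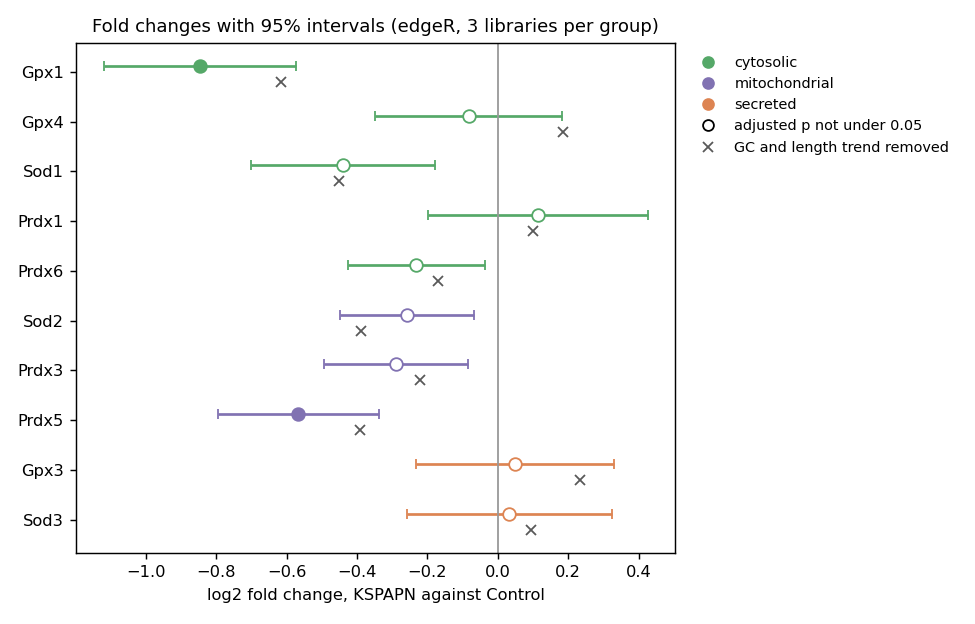
Log2 fold change of each member, KSPAPN against Control (x axis), with the 95% interval from edgeR (3 libraries per group), coloured by compartment and filled where the adjusted p was under 0.05. Grey crosses give the value after removal of the GC and length trend; Gpx1 at -0.85 and Prdx5 at -0.57 are the filled points, and the crosses of Gpx4 and Gpx3 lie to the right of their points.

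By compartment, the median log2 fold change was -0.23 for the 5 cytosolic members, -0.29 for the 3 mitochondrial members and 0.041 for the 2 secreted members, against -0.24 for all 10 and 0.012 for all genes tested. Summed over the cytosolic members, the level was 2046, 2316 and 1881 FPKM in Control and 1501, 1603 and 1476 in KSPAPN. The mitochondrial members summed to 757, 775 and 679 FPKM in Control and 484, 558 and 512 in KSPAPN, and the secreted members to 12451, 11756 and 11972 and to 12347, 12996 and 11925. The sums of the cytosolic and mitochondrial members did not overlap between groups, and those of the secreted members did. Whether the compartments differ was not tested, and the sums follow their most abundant gene, Gpx1, Prdx5 or Gpx3. Each gene was put in a single compartment, and counts per gene cannot separate forms of a gene that lie in different compartments. In whole kidney, fewer cells of a type and less RNA per cell cannot be told apart.

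By level per length in Control, the order was Gpx3, Gpx1, Prdx5, Gpx4, Prdx1, Sod3, Sod1, Prdx3, Prdx6 and Sod2. Only the neighbours Sod1 (112 to 137 FPKM) and Prdx3 (113 to 129) overlapped over the 3 libraries. In KSPAPN, Gpx4 (403 to 534 FPKM) stood before Prdx5 (368 to 425) and Prdx3 (89.8 to 104) before Sod1 (79.7 to 105), and the values of both pairs overlapped. The deposited FPKM divide by all exon bases of a gene, 10008 for Sod2 and 4804 for Prdx6 against 1441 for Gpx1 and 1478 for Prdx3, and genes whose long exons are little used come out low on that scale. The ratio of Gpx3 to Gpx1, of FPKM, was 10.4, 9.06 and 12.4 in Control and 20.8, 19.2 and 18.4 in KSPAPN. The mean ratio was 10.6 ± 1.68 in Control and 19.5 ± 1.19 in KSPAPN (SD, n = 3), with no overlap. As Gpx3 differed little, this ratio largely restates the fall of Gpx1, the member with the smallest p. Ratios of Gpx4 to Gpx1, Sod3 to Sod1, Prdx1 to Prdx5 and Gpx1 to Cat did not overlap either. Those of Sod1 to Sod2 and Prdx3 to Sod2 did.

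Over the 6 libraries, the log2 CPM of Gpx1 (counts scaled to library size) was correlated with that of Prdx5 at a Pearson r of 0.990, Sod2 with 0.976, Prdx3 with 0.963, Sod1 with 0.945 and Prdx6 with 0.928. For Gpx4, Prdx1, Sod3 and Gpx3 it was 0.223, -0.162, -0.162 and -0.496. The nearest of all genes tested were Tmem176b and Mroh7, both with r = 0.999, and Cisd1 with 0.997. For Gpx3 they were Brd1 (0.986), Gm38329 (0.974) and Ccdc134 (0.969). These values describe 6 points that share 2 groups and their normalization, and the difference between the groups is part of each.

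The genes around the members were taken from 9 lists of the same pathway, with 74 of 87 genes tested. Of the 74, 1 fell and 0 rose at an adjusted p under 0.05 (2.25% and 0.393% of all genes tested). By an unadjusted p under 0.05, 23 were lower and 3 higher, where 11.2% and 7.52% of all genes tested were, and without overlap 26 were lower and 2 higher, where 13.1% and 11.4% were. Their median log2 fold change was -0.11.

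The gene that fell was Msrb1, a selenoprotein that repairs oxidized methionine. It went from 144 ± 14.0 to 104 ± 5.93 FPKM (SD, n = 3), a log2 fold change of -0.47 (SE 0.10, adjusted p = 0.0381 from edgeR). The adjusted p was 0.0926 to 0.169 without Control replicate 1 or 2 or KSPAPN replicate 2 or 3, 0.0787 with total counts only, 0.0743 to 0.0769 with limma on log2 FPKM and 0.123 after removal of the GC and length trend, where the log2 fold change was -0.27. The other selenoproteins tested had values on both sides of 0 and a median of 0.0036 over all 12 with Msrb1. Selenon (0.58, SE 0.19, adjusted p = 0.145 from edgeR) was at the upper end, and Selenoo (-0.47, SE 0.14, adjusted p = 0.109) was close to Msrb1. Of the 11 genes for selenoprotein synthesis and selenium supply, 0 passed, 9 had a log2 fold change below 0, and the median was -0.26. Scly, which frees selenium from selenocysteine, had the smallest p, with -0.47 (SE 0.11, adjusted p = 0.0591 from edgeR) and 25.5 ± 2.84 against 18.3 ± 1.94 FPKM (SD, n = 3), and passed with DESeq2 (adjusted p = 0.00914). Selenop, the plasma carrier of selenium, was at 646 ± 170 and 509 ± 77.4 FPKM (SD, n = 3), and its groups overlapped.

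Glutathione, the substrate of the peroxidases, is made by Gclc, Gclm and Gss and kept reduced by Gsr. All 4 of these genes were lower without overlap and at an unadjusted p under 0.05, where 13.1% and 11.2% of all genes tested were, and 0 passed after adjustment, with a median log2 fold change of -0.32. With DESeq2, Gclc (adjusted p = 0.0163) and Gss (0.0352) passed, and after removal of the GC and length trend Gclm did (0.0428 from edgeR). Gss had the smallest p, at 66.8 ± 3.27 and 51.6 ± 6.83 FPKM (SD, n = 3; log2 fold change -0.37, SE 0.11, adjusted p = 0.101 from edgeR). Gclc, for the catalytic subunit of the limiting enzyme, had the largest difference, -0.56 (SE 0.17, adjusted p = 0.119). In the thioredoxin and glutaredoxin system, which restores most peroxiredoxins, 0 of 11 genes passed and 5 were lower without overlap (13.1% of all genes tested), with a median of -0.15. Txnrd2, the mitochondrial thioredoxin reductase, had the smallest p (-0.31, SE 0.10, adjusted p = 0.139 from edgeR), and was at -0.21 after removal of the GC and length trend. Of the 5 genes for NADPH supply 0 passed, and the median was -0.16. Idh2, the NADP-dependent isocitrate dehydrogenase of mitochondria, had the smallest p (-0.31, SE 0.10, adjusted p = 0.12 from edgeR), and was at -0.14 after removal of the GC and length trend.

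Of the 5 other peroxidases and peroxiredoxins tested, 0 passed, 3 had a log2 fold change below 0 and 2 above, and the median was -0.12. Gpx8 was at the upper end (0.49, SE 0.20, adjusted p = 0.225 from edgeR), and its groups overlapped. Gpx6, with the cysteine codon shown above, had the smallest p, at 23.3 ± 3.81 and 15.2 ± 1.64 FPKM (SD, n = 3; log2 fold change -0.61, SE 0.14, adjusted p = 0.0562 from edgeR and 0.00651 from DESeq2). Catalase (Cat), which breaks down hydrogen peroxide in peroxisomes, was at 324 ± 28.2 and 252 ± 27.5 FPKM, without overlap (log2 fold change -0.36, SE 0.11, adjusted p = 0.12 from edgeR and 0.0377 from DESeq2). It was the gene with the smallest p in a list of 3 tested genes with a median of -0.17. Among 15 genes for superoxide and peroxide sources 0 passed, and the median was -0.011. Hao2, a peroxisomal oxidase, had the smallest p there (-0.85, SE 0.26, adjusted p = 0.116 from edgeR), though its groups overlapped. Of 8 genes for metal transport 0 passed, with a median of -0.043, and Atox1, a copper chaperone, had the smallest p (-0.33, SE 0.10, adjusted p = 0.104), and was at -0.046 after removal of the GC and length trend (adjusted p = 0.78 from edgeR).

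**Figure D3:**
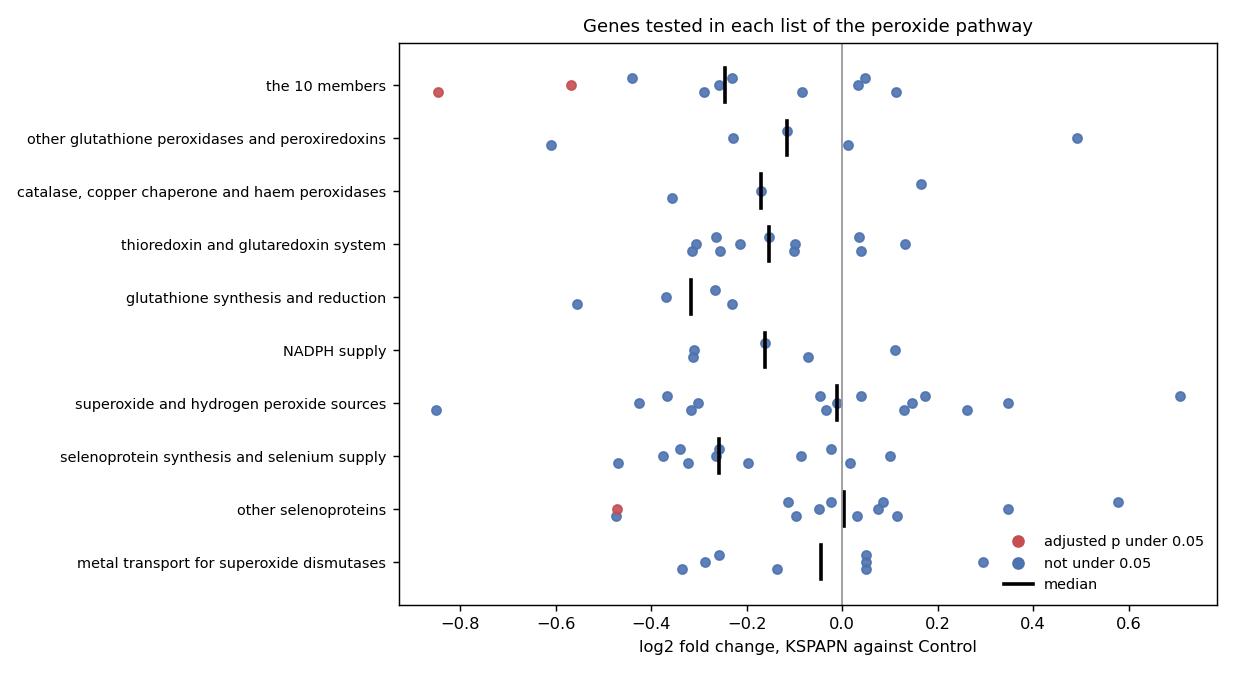
Log2 fold change of every tested gene (x axis) in the 10 members and in each of the 9 lists (rows), with black bars for the medians and red points for an adjusted p under 0.05 from edgeR. The red points are Gpx1, Prdx5 and Msrb1; all 4 genes of glutathione synthesis and reduction lie left of 0.

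Markers of cell types were measured beside these genes. Of the 12 markers of the proximal tubule, 3 fell at an adjusted p under 0.05, where 2.25% of all genes tested were lower and 0.393% higher (Slc22a6, Slc7a13 and Slc22a7, with log2 fold changes of -0.46, -1.46 and -1.68), 11 had a value below 0, and the median was -0.26. Their summed FPKM given above is mostly Kap and overlapped between groups. Without Kap, a sum chosen after its values were seen, the other 11 markers were at 2518 to 2992 FPKM in Control and 2128 to 2231 in KSPAPN, with no overlap. Of the 11 markers of the thick ascending limb and distal nephron, 1 rose (Slc12a1, 0.52) and the median was -0.045. By an unadjusted p under 0.05, 4 of the 11 were lower and 1 higher, where 11.2% and 7.52% of all genes tested were. Without overlap 3 were lower (Slc12a3, Fxyd4 and Slc4a1) and 1 higher, where 13.1% and 11.4% were. Of the 10 glomerular and endothelial markers 0 passed, with a median of 0.12. None of the 6 tested macrophage and lymphocyte markers passed, none of the 6 erythrocyte and 3 adipocyte markers did, and 2 of 4 tested hepatocyte markers fell (Ttr and Cyp2e1, -1.17 and -0.82). Alb and Apoa2, the other hepatocyte markers tested, were at 0.55 (SE 0.68) and -0.12 (SE 0.29), did not pass, and overlapped between groups. The 6 markers that passed lost their calls without Control replicate 1 (adjusted p = 0.0674 to 0.193 from edgeR), all but Slc22a7 did without Control replicate 2 or KSPAPN replicate 3, and Slc12a1 and Slc22a6 did without Control replicate 3 or KSPAPN replicate 2. None of the listed markers was at 0 in all libraries. Their part in the values of the 10 genes was not tested.

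Promoters were compared because 6 members were lower together. RefSeq sequences of GRCm38.p6, from 250 bases before to 50 after a start site, were at hand for 8 of the 10 members, without Sod3 and Prdx6. The core of the antioxidant response element, TGACNNNGC, searched on both strands, was found for Prdx1 at position -133 from the start site and for Sod1 at position -56, and for none of the other 6. Of 32851 promoters of that length, 12.4% hold it. The Sp1 core GGGCGG was found for all 8 members and in 35.7% of all promoters, and TATAAA for Prdx1, Prdx3 and Sod1 and in 13.6%. Gpx4 has several promoters, and that with chr10:80046916-80047165 upstream had no Sp1 core. The only Sp1 match of Gpx1 lay after the start site, at position 8. GC content was 47% for Gpx1 and up to 68.3% for a promoter of Gpx4, against a median of 52.7% for all promoters. The shares are per promoter and not per gene. A match of letters is a description and not a site of binding. The stretches outside all exons are given for the 2 promoters with the antioxidant core, chr4:116685349-116685543 for Prdx1 and chr16:90220512-90220753 for Sod1, both on the plus strand. Capitals mark matches to these motifs on either strand, and neighbouring matches run together in Sod1. The TATAAA of Prdx1, at position -29, lies outside the stretch given.
Prdx1: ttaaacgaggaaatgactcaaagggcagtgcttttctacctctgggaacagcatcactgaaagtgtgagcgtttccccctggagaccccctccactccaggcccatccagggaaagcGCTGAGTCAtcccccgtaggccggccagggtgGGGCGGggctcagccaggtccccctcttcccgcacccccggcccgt
Sod1: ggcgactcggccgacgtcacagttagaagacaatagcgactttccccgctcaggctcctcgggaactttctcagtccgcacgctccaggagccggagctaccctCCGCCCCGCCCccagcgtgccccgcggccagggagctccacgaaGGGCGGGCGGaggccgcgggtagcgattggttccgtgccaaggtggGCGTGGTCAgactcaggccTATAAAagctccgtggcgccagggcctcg
Of these 2 genes with the same core, Sod1 was lower without overlap and Prdx1 was not. Whether the core has a part in either value was not tested.

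**Figure D4:**
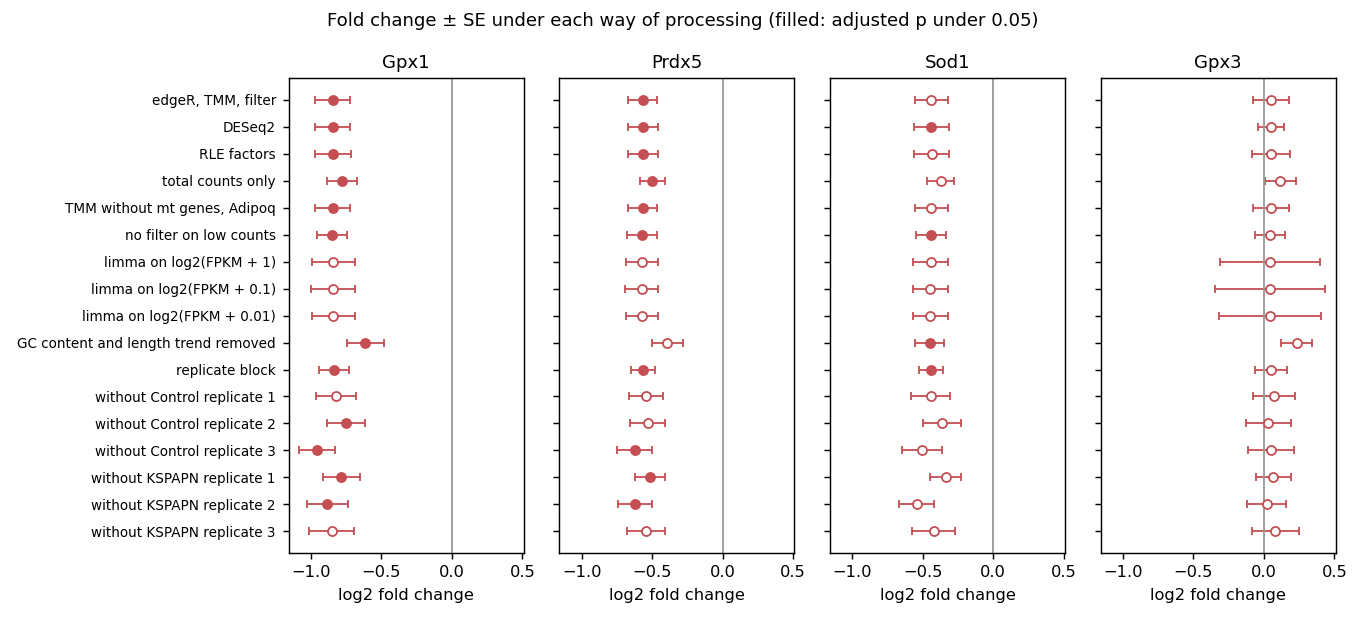
Log2 fold change ± SE of Gpx1, Prdx5, Sod1 and Gpx3 (panels, x axes) under each way of processing the counts or FPKM and with each library left out (rows), filled where the adjusted p was under 0.05. Gpx1 stays between -0.96 and -0.61, Prdx5 between -0.62 and -0.39, and Gpx3 between 0.021 and 0.23.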

How the data were processed

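RNA-seq was done on 6 pooled libraries. Per the submitters' processing notes, STAR 2.5, TopHat, HTSeq 0.6.1, DESeq2 and edgeR were named, with no role or order. For build, annotation and strandedness nothing is given in the sources used here. Raw counts per gene and FPKM were deposited by the authors in 1 table. The lengths behind the deposited FPKM equal the exon bases of GENCODE M21 for the members. The library sizes behind them do not follow the total counts alone. KSPAPN replicate 1 had the highest share of counts in Gpx3 (2.46%), but its FPKM of 12149 was below the 12844 of KSPAPN replicate 2.

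Counts were compared with edgeR 4.0.16 (R 4.3.3): TMM factors, a filter on low counts (at least 10 in enough libraries and 15 in total), and two-sided quasi-likelihood tests adjusted by Benjamini-Hochberg for 16017 genes. Alternatives were DESeq2 1.42.0, RLE factors, total counts, normalization without mitochondrially encoded genes and Adipoq, no filter, limma 3.58.1 on log2 FPKM (pseudocounts 1, 0.1 and 0.01), removal of a GC and length trend (splines, 5 degrees of freedom), replicate number as a block and each library left out. The scripts were tested on simulated data. Symbols were found for 54495 of 54532 genes. Intervals cover the spread between pools.

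The members and lists were chosen with earlier results of these data known. Named were the members, genes of the lists past the threshold or else with the smallest p, the 3 nearest genes of Gpx1 and Gpx3, and Adipoq. Ccs, Gclc, Gpx8, Selenon, Selenoo, Selenop and the markers were named after their values were seen. Nnt has 2 overlapping gene models and was left out.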

Additional observations from a re-analysis of the deposited data

How the results depend on the processing

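Of the 10 members, 2 were lower at an adjusted p under 0.05. With limma on log2 FPKM it was 0 at every pseudocount, where Gpx1 was at -0.842, -0.843 and -0.843 and Prdx5 at -0.571, -0.572 and -0.572 (pseudocounts 1, 0.1 and 0.01), and with each library left out it was 0 to 2. The count was 0 without Control replicate 1 or KSPAPN replicate 3 and 1 without Control replicate 2. With each library left out, Gpx1 lay between -0.955 and -0.752 and Prdx5 between -0.623 and -0.513. Sod1 passed with DESeq2 (-0.439), with no filter (-0.443) and after removal of the GC and length trend (-0.452). That removal put Sod2 past the threshold (-0.39) and Prdx5 short of it (-0.392), and reversed Gpx4 (0.185). Gpx4 lay between -0.186 and 0.0117 and Sod3 between -0.113 and 0.118 with each library left out, and both changed sign. The cause was not tested.

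Over all genes tested, 63 were higher and 361 lower. The counts were 178 and 746 with DESeq2, 301 and 1038 with no filter, 10 and 118, 10 and 109, and 7 and 95 with limma at pseudocounts of 1, 0.1 and 0.01, 100 and 300 after removal of the GC and length trend, 71 and 195 with total counts only, and 5 to 162 and 34 to 571 with each library left out. Total counts moved the median of all genes tested to 0.081. The pathway lists had 1 lower gene, and 10 with DESeq2, 13 with no filter, 0 with total counts or limma, and 0 to 7 with each library left out.

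The replicate numbers are not stated to pair the libraries. Deviations of same-numbered libraries correlated at 0.054, 0.154 and 0.173, and every library correlated best with its own number, as a hint from the data. With the replicate block, 224 genes were higher and 705 lower, 9 genes of the pathway lists were lower, and Sod1 passed (-0.443, adjusted p = 0.0295 from edgeR). No other member changed its call under the block.

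With total counts, medians were -0.177 for the members, -0.0818 for the thioredoxin list, 0.0721 for other selenoproteins and -0.0355 for all lists. After removal of the GC and length trend they were -0.39 for mitochondrial and 0.164 for secreted members, 0.0202 for other peroxidases and peroxiredoxins, 0.0505 for the catalase list, -0.0724 for the thioredoxin list, -0.142 for selenoprotein synthesis, 0.0916 for other selenoproteins and -0.0661 for all lists. With each library left out, medians were -0.147 to 0.108 for other peroxidases and peroxiredoxins, -0.212 to -0.123 for the thioredoxin list, -0.259 to -0.0424 for NADPH supply, -0.0838 to 0.0948 for peroxide sources, -0.315 to -0.146 for selenoprotein synthesis, -0.119 to 0.0318 for metal transport and -0.149 to -0.0889 for all lists. Summed without Gpx3, the log2 ratio of the members was -0.339 in CPM and -0.431 in FPKM.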
